A study of Mus musculus with 12 samples.

Results

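Chromatin around 8 regulators of osteoblast formation was examined in mouse mesenchymal stem cells (MSCs), namely Runx1, Runx2, Runx3, Cbfb, Sp7, Twist1, Twist2 and Atf4. Members were the called regions of H3K27ac or H3K27me3 that overlapped the GENCODE body of one of these genes or the 50 kb on either side of it. They numbered 58 of the 59664 regions of both tables, 35 of 31617 for H3K27ac and 23 of 28047 for H3K27me3. The cells came from young mice of 3 to 5 months and from old mice of 18 to 22 months, and all were cultured at 2% oxygen. CUT&RUN, in which an antibody directs a nuclease to a chromatin mark and the released DNA is sequenced, was performed on 3 young and 3 old samples for each mark, 12 libraries in all. The labels do not say that the 3 samples of a group came from separate animals, so p-values measure the spread between these samples, which may be technical. The comparison asks how age alters an activating and a repressive mark around genes that act in bone formation.

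H3K27ac, the acetylation of lysine 27 of histone H3, marks active promoters and enhancers, and H3K27me3, the trimethylation of the same residue, is laid down by Polycomb at repressed genes. Runx1, Runx2 and Runx3 bind DNA through the same Runt domain, Cbfb is their shared partner, and Runx2 is required for the osteoblast lineage. Sp7 (osterix) acts after Runx2, Twist1 and Twist2 restrain Runx2 in early mesenchyme, and Atf4 drives amino acid supply and late osteoblast genes.

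The promoters were compared as sequence first, since the 3 Runx genes share a promoter stretch. It lies in an H3K27ac region in Runx1 and Runx2 and in an H3K27me3 region in Runx3. RefSeq (GRCm38.p6) held promoters for 7 of the 8 genes, all but Sp7, and the 9 sequences all matched the genome. The 18 bases that the most upstream promoters of Runx1, Runx2 and Runx3 have in common are in capitals below. They hold 2 copies of the Runx core ACCACA. Counted from the RefSeq transcription start, they begin at base 27 in Runx1, base 22 in Runx2 and base -136 in Runx3. They are read along the coding strand at chr16:92826027-92826052 (Runx1, minus), chr17:44814585-44814610 (Runx2, minus) and chr4:135120505-135120530 (Runx3, plus), coordinates that include 4 flanking bases on each side.
Runx1: taaaCAACCACAGAACCACAAGttgg
Runx2: caaaCAACCACAGAACCACAAGtgcg
Runx3: ccctCAACCACAGAACCACAAGgcca
Of 32851 promoters searched on both strands, 4 held these 18 bases, the fourth being that of Gm16225, which lies over the same bases as Runx3 on the opposite strand. The core ACCACA alone was in 16.8% of all promoters of 300 bases, and 1.81% had it at least 2 times.

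Below, stretches before the TSS (transcription start site) are shown for promoters with different marks, with CpG dinucleotides in capitals and annotated exons left out. They are the distal and proximal promoters of Runx1 (chr16:92826150-92826324 and chr16:92697330-92697579, minus strand), the proximal promoter of Runx3 (chr4:135152295-135152495, plus strand), Twist1 (chr12:33957421-33957670, plus strand) and Twist2 (chr1:91801211-91801460, plus strand).
Runx1 distal: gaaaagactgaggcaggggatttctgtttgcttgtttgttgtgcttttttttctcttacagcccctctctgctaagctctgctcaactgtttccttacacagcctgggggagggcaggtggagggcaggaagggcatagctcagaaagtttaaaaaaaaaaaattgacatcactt
Runx1 proximal: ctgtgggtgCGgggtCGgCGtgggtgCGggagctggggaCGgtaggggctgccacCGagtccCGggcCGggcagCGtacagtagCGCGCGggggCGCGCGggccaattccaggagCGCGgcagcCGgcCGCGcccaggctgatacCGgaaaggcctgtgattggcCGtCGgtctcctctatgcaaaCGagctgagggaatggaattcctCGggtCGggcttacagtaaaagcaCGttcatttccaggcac
Runx3 proximal: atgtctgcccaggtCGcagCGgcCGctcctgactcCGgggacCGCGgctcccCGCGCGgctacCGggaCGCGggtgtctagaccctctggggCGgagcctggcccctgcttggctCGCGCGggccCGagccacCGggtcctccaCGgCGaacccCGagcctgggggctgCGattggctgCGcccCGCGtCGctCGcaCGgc
Twist1: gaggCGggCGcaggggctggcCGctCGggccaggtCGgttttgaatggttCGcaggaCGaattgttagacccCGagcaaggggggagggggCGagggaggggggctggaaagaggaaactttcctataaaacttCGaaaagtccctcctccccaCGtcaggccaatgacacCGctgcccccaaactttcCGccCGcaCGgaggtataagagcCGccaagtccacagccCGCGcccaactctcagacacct
Twist2: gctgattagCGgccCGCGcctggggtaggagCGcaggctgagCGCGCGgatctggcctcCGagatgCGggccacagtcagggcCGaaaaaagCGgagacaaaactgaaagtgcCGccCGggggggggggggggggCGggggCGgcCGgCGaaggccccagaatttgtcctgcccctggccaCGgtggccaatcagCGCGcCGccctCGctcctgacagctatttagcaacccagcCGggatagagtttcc
Over the full 250 bases before the TSS, the distal promoters of Runx1 and Runx2 held few CpG, 2 and 0. The median of all promoters was 6 (interquartile range 2 to 16), and the distal promoter of Runx3 held 8, above that median. The proximal promoters of Runx1 and Runx3 held 27 and 38, Cbfb held 25, Twist2 held 23, and Twist1 and Atf4 each held 18. CpG number did not sort the marks among these promoters. The most CpG-rich, that of Runx3, lay in an H3K27me3 region with no H3K27ac region, the proximal promoter of Runx1 lay in an H3K27ac region alone, and Twist2 lay in both. Motifs were counted over 300 bases, the 250 before the TSS and 50 after it. The E-box CANNTG that Twist proteins bind was found 3 times in the distal promoter of Runx1 and 2 times in Runx2. It was found 4 times in Atf4 and 1 time in each Runx3 promoter, against 72.3% of all promoters with at least 1. The matches at base 36 in Runx2 and at base 3 in the proximal Runx3 promoter lie after the TSS. The GC box GGGCGG was found 4 times each in Cbfb and Twist2, 3 times in the proximal promoter of Runx3 and 1 time in Twist1, against 35.7% of all promoters with at least 1. Matches were counted on both strands and describe letters, not binding.

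**Figure D1:**
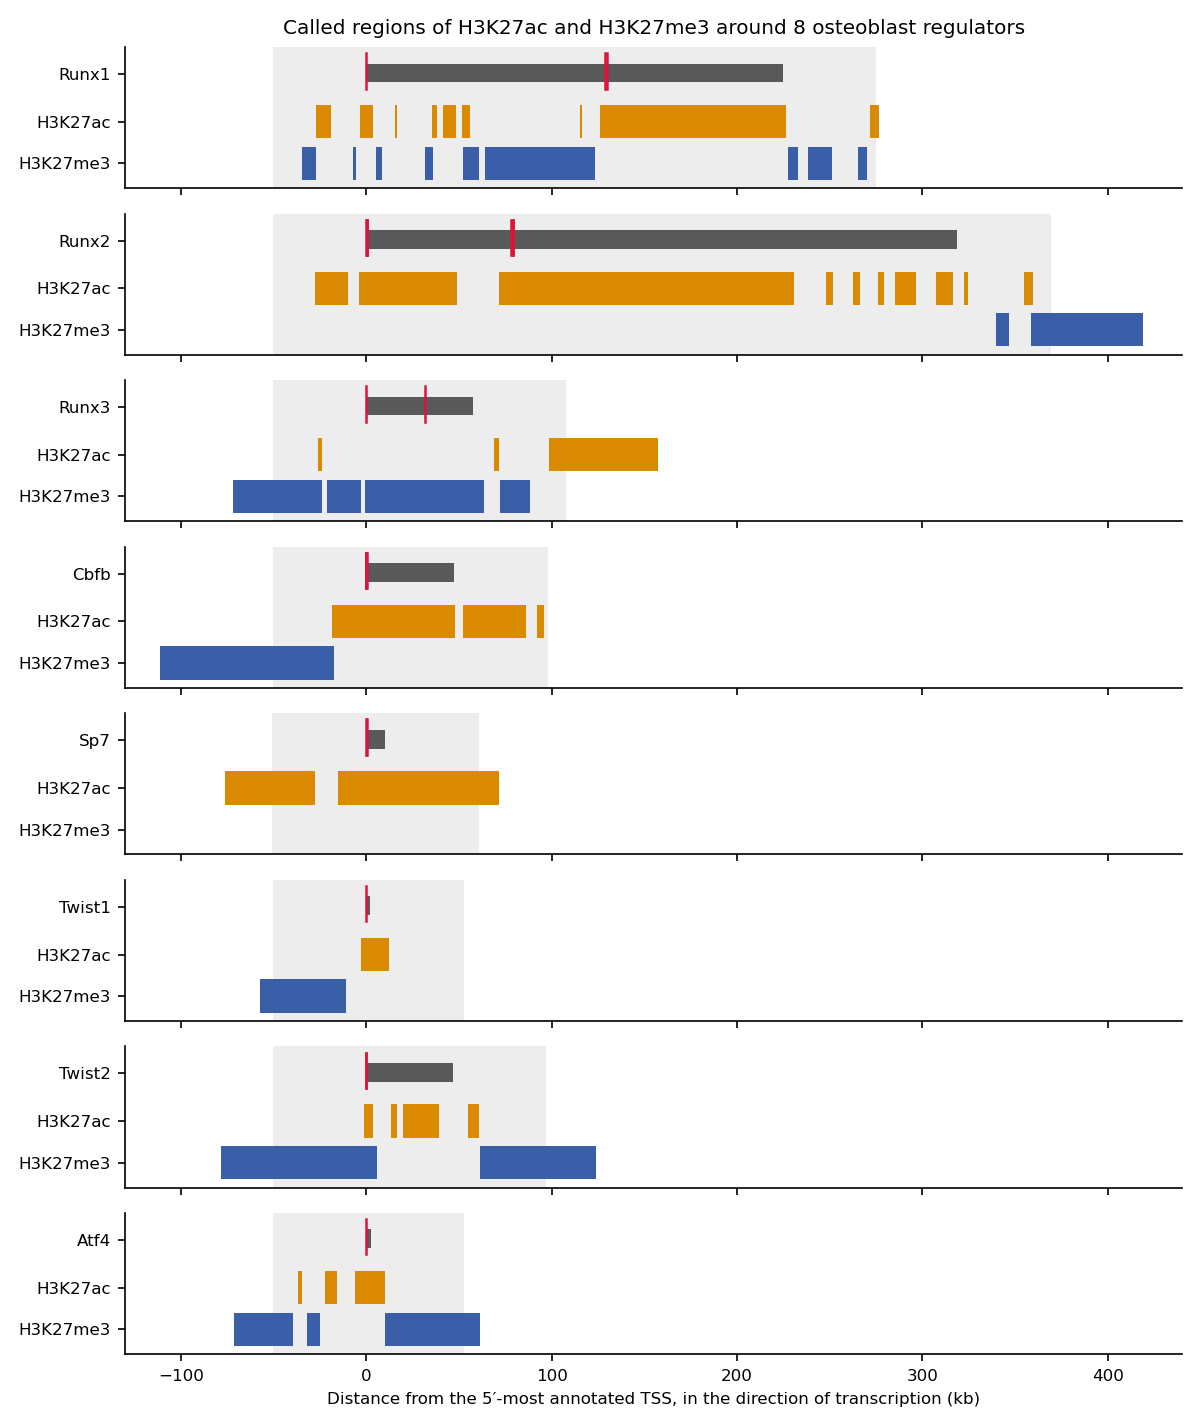
Map of each gene (grey bar, red ticks for annotated TSSs) with the called H3K27ac (orange) and H3K27me3 (blue) regions that meet its window (light grey, gene body and 50 kb on each side), against the distance in kb from the most upstream TSS in the direction of transcription. H3K27ac covered 75.1% of the body of Runx2, H3K27me3 covered 100% of that of Runx3, and the marks alternated along Runx1.

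A region counted as over a TSS when it met the TSS or the 1 kb on either side of it. The marks of the promoters above were instead read at the RefSeq TSS itself. Of the 8 genes, 7 had an H3K27ac region over a TSS, all but Runx3, and 2 had an H3K27me3 region there, Runx3 and Twist2. Among all 21840 protein-coding genes these shares were 53.6% for H3K27ac, 33.9% for H3K27me3 and 9.02% for both. Most members overlapped no region of the other mark, as the map of called regions shows, but the overlapping shares were not below those of all regions. Of the H3K27ac members, 7 of 35 (20.0%) overlapped an H3K27me3 region, against 15.7% of all H3K27ac regions, and 7 of 23 H3K27me3 members (30.4%) overlapped an H3K27ac region, against 14.9%. All 35 H3K27ac members and 22 of the 23 H3K27me3 members had been assigned by the authors to both ages, and 1 H3K27me3 region of Runx1 to young alone.

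The depth of the libraries, recovered under an assumed constant length of 0.5 kb, was 2750953 to 5541429 reads for H3K27ac and 3622108 to 9947515 for H3K27me3. Old replicate 2 was the shallowest in both marks. The median member held 34.5 reads per library in H3K27ac and 109 in H3K27me3. The MSC label was checked at 7 surface marker genes of these cells (Ly6a, Pdgfra, Thy1, Eng, Nt5e, Cd44 and Itgb1), all of which had an H3K27ac region over the TSS. That held for 1 of 6 blood markers (Cd68) and 1 of 4 endothelial markers (Pecam1), and for 53.6% of all protein-coding genes. H3K27me3 lay over the TSS of 1 MSC marker (Nt5e), 2 blood markers (Itgam and Cd3e) and 3 endothelial markers (Cdh5, Kdr and Tek).

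No member changed with age past the test. With limma on log2(scaled signal + 0.5) and Benjamini-Hochberg adjustment over the whole table, 0 of 35 H3K27ac and 0 of 23 H3K27me3 members had an adjusted p under 0.05, where 0.0822% and 0.488% of all regions did. The smallest adjusted p among members was 0.254 for H3K27ac and 0.0895 for H3K27me3. The latter was that of a Runx1 region assigned by the authors to young alone, which entered the table through the young libraries. At an unadjusted p under 0.05 the members numbered 3 for H3K27ac (8.57%, against 9.6% of all regions) and 4 for H3K27me3 (17.4%, against 13.9%). Old and young libraries did not overlap in 2 H3K27ac members, both higher in old, where 14.5% of all regions had groups apart. The same held for 5 H3K27me3 members, 3 higher and 2 lower in old, where the share over all regions was 19.1%. Scaled signal is the deposited value divided by a library factor, and fold changes on this scale understate those of regions with few reads. The shares near the background are no result about these genes.

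The median log2 fold change, old over young, was 0.02 over H3K27ac members against 0.00 over all regions, with 19 members higher and 16 lower in old, from -0.40 to 0.83. Over H3K27me3 members it was -0.13 against -0.01, with 9 higher and 14 lower. It ranged from -0.17 to -0.06 when a library was left out, the latter without young replicate 3, and was -0.25 without scaling, where the median of all regions was -0.13. This median was the same with the region that had no old reads placed at its bound, a Runx1 region given with that gene.

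**Figure D2:**
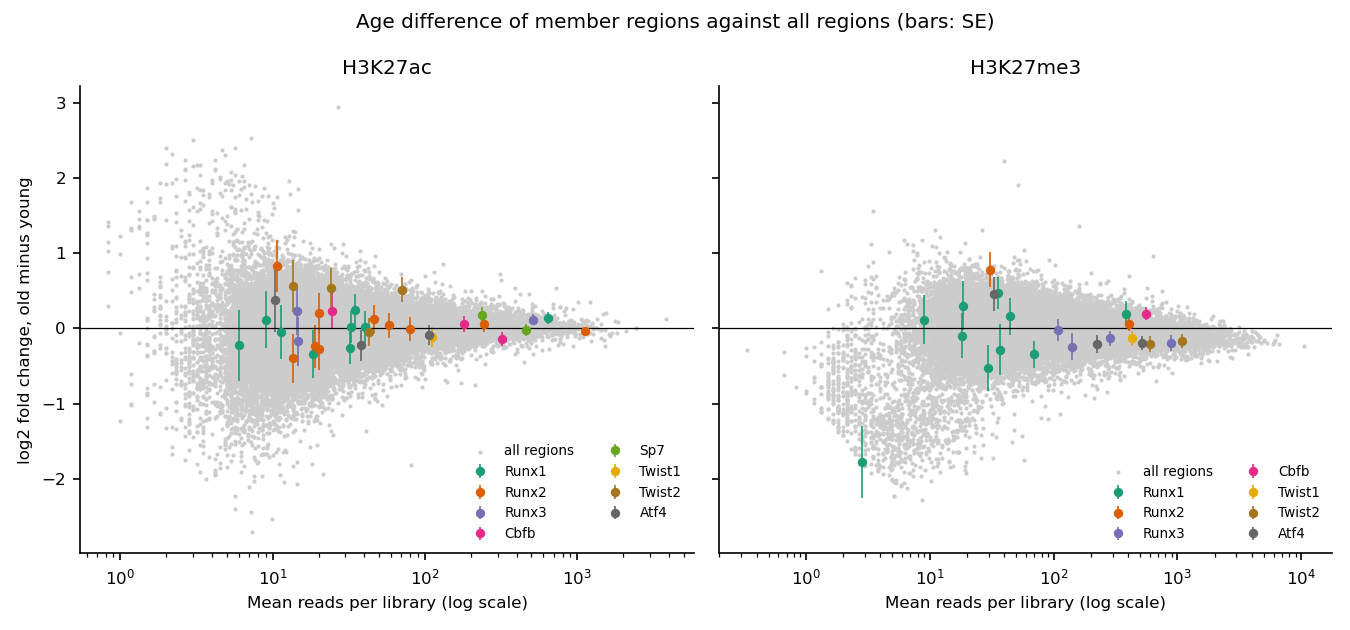
Log2 fold change, old minus young (vertical), against the mean reads per library on a log scale (horizontal) for the 58 member regions, coloured by gene with SE bars, over all regions of each table in grey. No member passed an adjusted p of 0.05. The member farthest from 0, a Runx1 region of H3K27me3 at -1.78, held a mean of 2.83 reads and 0 in every old library. The authors had assigned it to young alone.

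Runx2, the lineage factor, carried the longest H3K27ac among the 8 genes and no H3K27me3 in its body. A region of 159 kb (chr17:44584001-44743000), the 53rd longest of 31617, covered the proximal TSSs and part of the gene behind them. The 3′ part of the gene, to chr17:44495987, lay outside it and held separate intronic H3K27ac regions. A further region of 52.5 kb (chr17:44766001-44818500) covered the distal TSSs and also the TSS of Supt3, a transcriptional coactivator subunit, so it cannot be given to either gene. Neither moved with age beyond the spread. The long region measured 518, 455 and 515 in young and 470, 497 and 482 in old libraries. Its log2 fold change was -0.04 ± 0.06 (SE, adjusted p = 0.887). The groups overlapped, and the 95% interval of the log2 fold change ran from -0.15 to 0.08. The distal region gave 104 ± 11.0 in young and 108 ± 7.89 in old (SD, n = 3 each).

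Beyond the 3′ end of Runx2, small regions of both marks were higher in old without passing the test. The H3K27me3 region of 7 kb at chr17:44468001-44475000 measured 4.94, 6.64 and 7.06 in young and 8.08, 13.6 and 11.7 in old. Every old library was above every young one, with a log2 fold change of 0.78 ± 0.23 (SE, adjusted p = 0.121). An H3K27ac region of 2.5 kb at chr17:44490001-44492500, 15 kb from it, measured 2.94, 4.04 and 3.62 in young and 4.78, 7.86 and 7.64 in old. Its groups did not overlap either (log2 fold change 0.83 ± 0.35, adjusted p = 0.432), and it held a mean of 10.7 reads per library.

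Runx1, best known as a regulator of blood formation, was divided between the marks. H3K27ac covered 53.0% of its body and H3K27me3 34.0%. The acetylated 3′ part, a region of 100.5 kb from the proximal TSSs to the gene end (chr16:92599501-92700000, the 239th longest), ended 2.5 kb from an intronic H3K27me3 region of 59.5 kb (chr16:92702501-92762000). The distal TSS lay in a 7 kb H3K27ac region with H3K27me3 regions 1.5 and 2.0 kb away on its sides.

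H3K27ac over the proximal promoter measured 258, 249 and 311 in young and 279, 322 and 298 in old. The ranges overlapped, with a log2 fold change of 0.14 ± 0.07 (SE, adjusted p = 0.560). Intronic H3K27me3 over 59.5 kb measured 83.2, 98.2 and 105 in young and 98.4, 152 and 85.9 in old. Old replicate 2, the shallowest library, was the high one, and the other 2 old libraries lay within the young range. The same library set the sum over all 10 H3K27me3 regions of the window, whose log2 ratio was 0.13 with it and -0.07 without it.

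Smaller H3K27me3 regions stood near the distal promoter of Runx1. The one nearest to a TSS, chr16:92817501-92821000, gave 5.14 ± 2.34 in young and 4.59 ± 1.10 in old (SD, n = 3 each). Farther upstream, chr16:92853001-92861000, abutting an H3K27ac region, measured 8.49, 7.44 and 8.11 in young and 9.60, 15.4 and 9.83 in old. All old libraries were above the young ones, with a log2 fold change of 0.48 ± 0.21 (SE, adjusted p = 0.317), which was 0.27 without old replicate 2. An intronic region of 0.5 kb (chr16:92798501-92799000), named after its values were seen, held 4, 5 and 8 reads in young and 0 in each old library. Against a floor of 3 reads per old library its scaled signal was at least 1.17-fold lower in old, and its adjusted p was 0.0895. The authors had assigned it to young alone, so it entered the table through the young libraries. Neither value therefore counts as evidence of a change with age.

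Runx3, known in T cells and sensory neurons, was the gene of the family without acetylation. A 64 kb H3K27me3 region (chr4:135120001-135184000) covered 100% of its body and both its promoters, H3K27ac covered 0%, and 3 further H3K27me3 regions flanked it. Its signal per kb exceeded that of 98.8% of all H3K27me3 regions. It measured 228, 245 and 258 in young and 203, 263 and 181 in old, where old replicate 2 was the highest of all and the other 2 old libraries were below every young one. The log2 fold change was -0.19 ± 0.11 (SE, adjusted p = 0.450), with -0.34 without old replicate 2 and -0.07 without old replicate 3. The neighbouring upstream region (chr4:135099501-135118000) showed the same pattern, with 37.9, 38.4 and 43.9 in young and 27.3, 50.0 and 27.9 in old. Its log2 fold change of -0.25 (adjusted p = 0.580) became -0.53 (adjusted p = 0.0316) without old replicate 2, a call that rests on leaving out that library. The nearest H3K27ac region to a Runx3 TSS, 23.7 kb upstream, gave 5.64 ± 0.684 in young and 6.89 ± 2.32 in old. The large H3K27ac region of this window, 59 kb long, lay over the TSS of Clic4, a chloride channel gene.

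Cbfb, the partner of all 3 Runx proteins, was acetylated along its whole length by a region of 66.5 kb (chr8:105152001-105218500). It measured 155, 144 and 141 in young and 137, 118 and 146 in old. The groups overlapped (log2 fold change -0.14 ± 0.09, adjusted p = 0.656). The H3K27me3 region of its window, a stretch of 94 kb upstream of the gene over the carboxylesterase genes Ces3b and Ces4a (chr8:105059501-105153500), overlapped the acetylated region by 1.5 kb. It measured 145, 132 and 134 in young and 150, 164 and 157 in old. All 3 old libraries were above the young ones, by a log2 fold change of 0.19 ± 0.09 (SE, adjusted p = 0.321).

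Sp7, the zinc finger factor of committed osteoblasts, had no H3K27me3 region in its window, the nearest lying 91.5 kb from a TSS. It lay within an H3K27ac region of 86.5 kb (chr15:102295501-102382000) that it shares with 4 other genes whose TSSs it covers, Pfdn5, Myg1, Espl1 and Aaas, and its signal cannot be divided among them. This region measured 208, 231 and 181 in young and 204, 189 and 214 in old, with a log2 fold change of -0.03 ± 0.08 (SE, adjusted p = 0.951). The direction was not fixed, since it became 0.06 without young replicate 2 and 0.02 without old replicate 2. A region of 48.5 kb upstream, at the gene of the related factor Sp1, gave 97.6 ± 0.891 in young and 111 ± 16.3 in old.

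Twist1 and Twist2, related basic helix-loop-helix factors, differed in their marks. Twist1 lay in an H3K27ac region of 15 kb (chr12:33955001-33970000) that contained no other protein-coding gene. This region had the highest mean signal per kb of the 9 regions over a member TSS, 3.21 ± 0.331 (SD, 6 libraries). It measured 56.2, 43.3 and 51.0 in young and 48.6, 46.4 and 43.3 in old, and the groups overlapped (log2 fold change -0.11 ± 0.13, adjusted p = 0.840). Its H3K27me3 region, 46.5 kb long and 10.7 kb upstream of the TSS, lay over Ferd3l, another gene of that family. It gave 113 ± 4.97 in young and 104 ± 10.1 in old (log2 fold change -0.13, adjusted p = 0.578).

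At Twist2 a 5 kb H3K27ac region over the TSS (chr1:91800001-91805000) lay wholly inside an H3K27me3 region of 84.5 kb (chr1:91723001-91807500), whose signal per kb exceeded that of 97.9% of H3K27me3 regions. H3K27ac over the TSS measured 6.53, 8.66 and 12.2 in young and 10.8, 15.7 and 13.3 in old, from 15 to 37 reads a library. The groups overlapped between the highest young and the lowest old library (log2 fold change 0.54 ± 0.26, adjusted p = 0.501, and 0.33 without young replicate 1). In the intron, a 19 kb H3K27ac region (chr1:91821501-91840500) measured 23.2, 27.7 and 30.3 in young and 31.5, 50.3 and 36.2 in old.

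All old libraries of this intronic region were above the young ones, and its log2 fold change of 0.51 ± 0.17 (SE) had the smallest adjusted p of the H3K27ac members, 0.254. The value was 0.32 without old replicate 2. H3K27me3 over the TSS of Twist2 measured 272, 289 and 313 in young and 282, 271 and 228 in old (log2 fold change -0.17 ± 0.09, adjusted p = 0.431). The groups overlapped, and the value was -0.07 without old replicate 3, the lowest library. In its second H3K27me3 region (chr1:91863001-91925500) the mean was 159 ± 4.28 in young and 139 ± 22.5 in old.

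Atf4, the stress-response factor, lay in an H3K27ac region of 16.5 kb (chr15:80249001-80265500) that also covers the TSS of Rps19bp1. It measured 45.4, 51.9 and 47.0 in young and 49.4, 38.5 and 48.4 in old, with overlapping groups (log2 fold change -0.09 ± 0.13, adjusted p = 0.886). The H3K27me3 region that begins at its end (chr15:80265501-80316500) lay 10.3 kb from the TSS and over the TSS of the calcium channel gene Cacna1i. It measured 138, 136 and 150 in young and 133, 132 and 107 in old. All old libraries were below the young ones, by a log2 fold change of -0.19 ± 0.10 (SE, adjusted p = 0.392), which was -0.09 without old replicate 3.

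Levels of the 9 H3K27ac regions over a member TSS, as scaled signal per kb averaged over 6 libraries, ran from 3.21 at Twist1 through 3.08 at the proximal Runx2 TSSs, 2.85 at the proximal Runx1 TSSs and 2.84 at Atf4. Below them stood the distal Runx1 TSS at 2.44, Sp7 at 2.36, Twist2 at 2.24, Cbfb at 2.11 and the distal Runx2 TSSs at 2.02. Every neighbouring pair in this order overlapped in its range over libraries. In H3K27me3 Runx3 averaged 3.59 ± 0.507 and Twist2 3.26 ± 0.331 (SD, 6 libraries), which overlapped as well.

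By the root mean square difference of log2 signal per kb over 6 libraries, the TSS regions on other chromosomes most like the acetylated Twist1 region were that of Ampd2, Gnai3 and Gnat2, which is 1 shared region (0.0833). The most like the methylated Runx3 region were those of Tmem132e (0.0666) and of Dchs1 and Tpp1, again 1 shared region (0.0737).

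**Figure D3:**
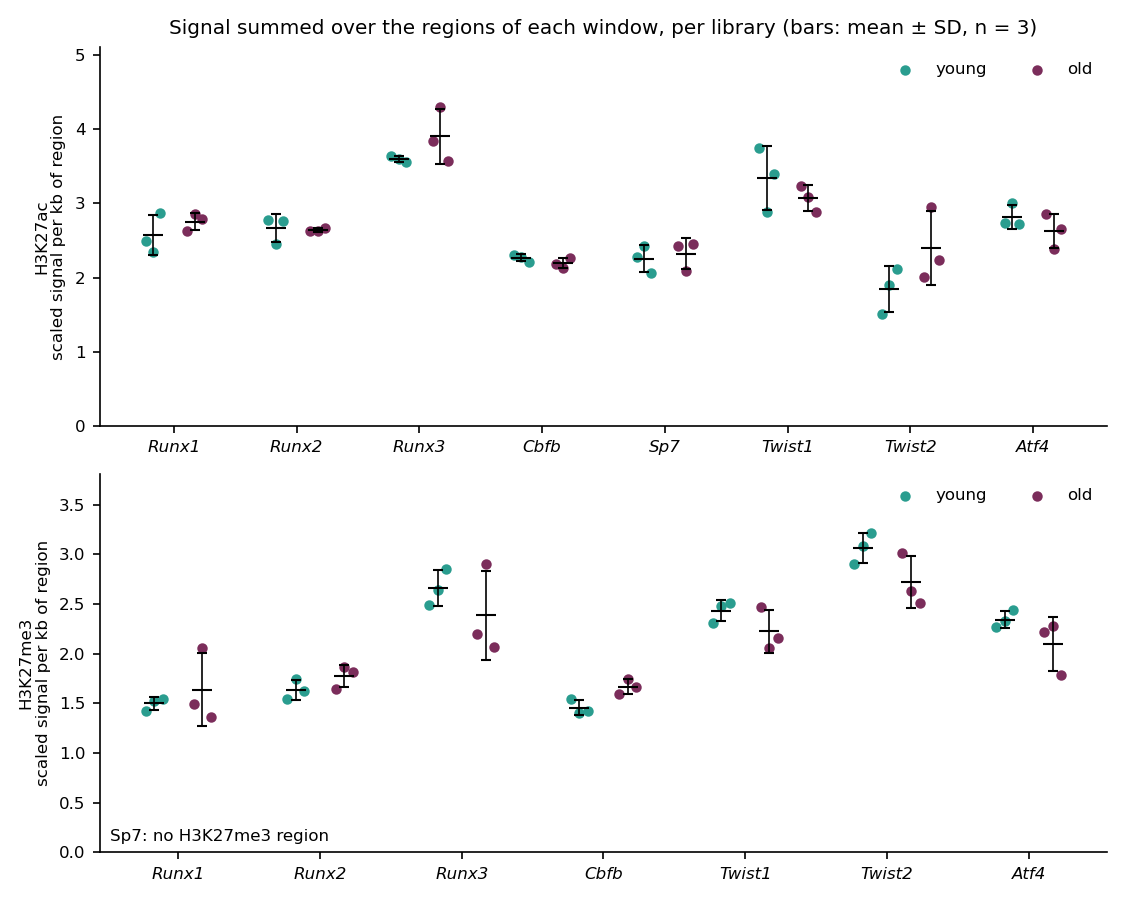
Scaled signal summed over the member regions of each window and divided by their length (vertical, per kb), for H3K27ac (top) and H3K27me3 (bottom), with a point per library and bars for the mean and SD of 3 young and 3 old libraries. Young and old points were apart only for H3K27me3 at Cbfb, and Sp7 has no H3K27me3 region.

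Summed over whole windows, old and young libraries overlapped for all 8 genes in H3K27ac and for 6 of 7 in H3K27me3. Over the windows of all protein-coding genes, 16.6% were apart in H3K27ac and 19.5% in H3K27me3. The exception was Cbfb, whose H3K27me3 sum is that of its single region, with an exact two-sided permutation p = 0.10, the smallest that 3 against 3 samples allow, and 0.429 after adjustment over the 15 sums. At Twist2, H3K27ac summed to 49.7, 62.9 and 70.1 in young and 66.2, 97.5 and 73.9 in old, a ratio of 1.30 (exact permutation p = 0.20, adjusted p = 0.429). Its log2 ratio of 0.38 became 0.20 without old replicate 2. Without scaling, every one of these sums moved down in old against young, the median log2 fold change of all regions being -0.12 for H3K27ac and -0.13 for H3K27me3. The separation at Cbfb was then lost, and H3K27me3 at Atf4 became lower in all old libraries than in the young ones. Of the sums that were higher in old after scaling, those of Runx1, Runx3 and Sp7 in H3K27ac and of Runx2 in H3K27me3 became lower (-0.03, -0.01, -0.07 and -0.01 on the log2 scale).

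The balance of the marks, the log2 ratio of summed H3K27ac to summed H3K27me3 in libraries of the same number, ordered the 7 genes that have both marks. Because the tables were normalized separately and the labels do not tie the numbers across marks, levels and single-number values are descriptions, while the difference of the group means does not depend on how the numbers are joined. In young samples the mean was 2.71 at Runx2, 1.10 at Runx1 and 0.78 at Cbfb, and it was -0.75 at Runx3, -1.18 at Twist1, -1.58 at Atf4 and -2.90 at Twist2. Of these 7 genes Runx2 thus had the most acetylation per methylation, while Sp7, with no H3K27me3 region, had no ratio. In young, 94.3% of the Runx2 H3K27me3 sum was a region of 60 kb (chr17:44396001-44456000) that lay mostly outside the window. The low values of Twist1 and Atf4 include H3K27me3 regions over Ferd3l and Cacna1i.

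**Figure D4:**
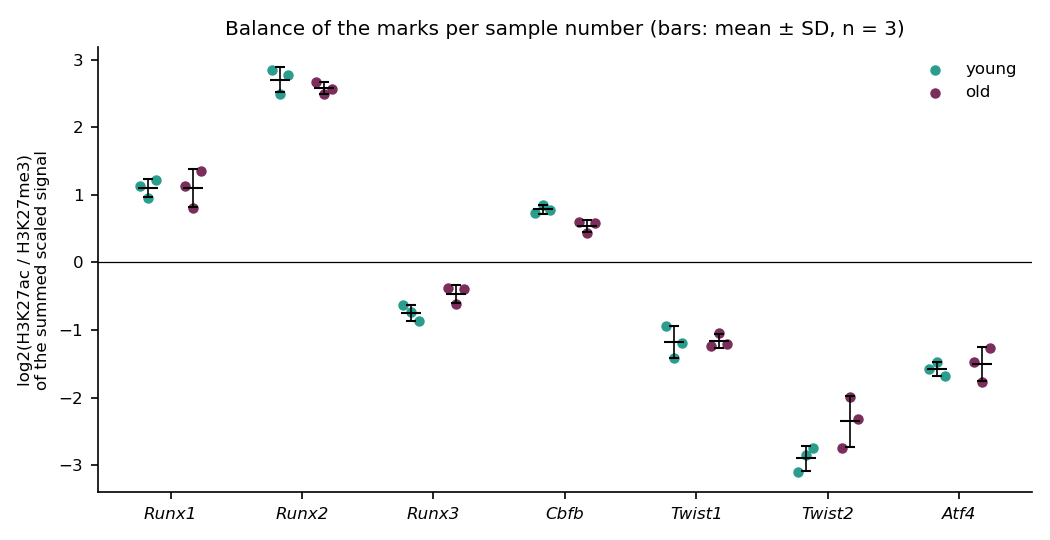
Log2 ratio of summed H3K27ac to summed H3K27me3 scaled signal (vertical) for the 7 genes with both marks, with a point per sample number and bars for the mean and SD of 3 young and 3 old samples. Twist2 and Runx3 sit higher in old, by 0.55 and 0.28, and Cbfb lower, by 0.24.

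At Twist2 the balance was -3.11, -2.85 and -2.75 in young and -2.74, -1.99 and -2.32 in old, a difference of the means of 0.55. At Runx3 it was -0.64, -0.74 and -0.86 in young and -0.38, -0.61 and -0.39 in old, a difference of 0.28. At Cbfb it was 0.73, 0.85 and 0.78 in young and 0.59, 0.44 and 0.59 in old, a difference of -0.24, with old below young. The acetylation in the Runx3 window is mostly the Clic4 region, which held 94.5% of that sum. At Cbfb, the H3K27me3 sum is wholly the region over Ces3b and Ces4a, which covers 0% of the Cbfb body and has 32.8 of its 94 kb in the window. Of the H3K27ac sum in young, 62.3% is the region over Cbfb, and the rest lies over other genes. The shift can therefore not be given to Cbfb itself.

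Joined by number, groups were apart in these 3 of 7 windows, where 19.2% of all gene windows with both marks had groups apart. When any library of a mark was set against any library of the other within an age, Cbfb alone remained apart, with young values from 0.67 up and old values up to 0.65, while Twist2 and Runx3 overlapped. The differences at Runx1, Runx2, Twist1 and Atf4 were 0.00, -0.13, 0.02 and 0.07. Over all gene windows the median difference was 0.06, and 97.5% of windows lay below Twist2, 84.8% below Runx3 and 11.3% below Cbfb. Without scaling the differences were 0.55, 0.29 and -0.24, but in each of the 3 windows the old and young values overlapped.

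Other genes of these pathways were counted at their TSS regions, and 0 were called in either mark in any of 5 lists. Of all regions over the TSS of a protein-coding gene, 0.0791% were called in H3K27ac and 0.679% in H3K27me3, so that a count of 0 in lists of this size says nothing of these genes. Of 10 partners and repressors of Runx2, 10 had H3K27ac over the TSS and 1, Tle1, had H3K27me3. The acetylated regions were higher in old in 7 and lower in 3, with a median log2 fold change of 0.07. Named after its values were seen, Zfp521, a Runx2 repressor, gave 376 ± 25.8 in young and 326 ± 20.5 in old (SD, n = 3 each; limma adjusted p = 0.224). Its groups were apart, with every old library below the young ones.

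Of 10 upstream regulators, 5 had H3K27ac over the TSS and 7 had H3K27me3, among them Dlx3, Bmp2 and Bmp4. The 7 genes lay in 6 regions, since Dlx5 and Dlx6 share 1, and 5 of the 6 regions were lower in old (median log2 fold change -0.16). Of 10 osteoblast targets, 4 had H3K27ac (Alpl, Col1a1, Col1a2 and Spp1) and 3 had H3K27me3 (Alpl, Ibsp and Dmp1), with medians of -0.04 and -0.02. Among 8 bHLH partners and Id inhibitors of Twist proteins, 7 had H3K27ac (median 0.07, with 5 higher and 2 lower) and Hand2 alone had H3K27me3. Of 8 regulators and targets of Atf4, 7 had H3K27ac (median -0.15, with 3 higher and 4 lower) and 3 had H3K27me3 (median -0.30, with 1 higher and 2 lower). Over the TSS regions of all genes the median was 0.02 for H3K27ac and -0.06 for H3K27me3.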

How the data were processed

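CUT&RUN of H3K27ac and H3K27me3 was analysed from 1 table per mark. Per the labels, the submitters' processing notes name Bowtie2, Picard and mm10/GRCm38. Versions, caller and duplicate handling are not given in the sources used here. The deposited signal, named RPKM, had not been divided by region length, since 100% of values were whole multiples of 1 step per library. That step was taken as 1 read over a constant 0.5 kb, the grid of region starts, and reads and totals were recovered. The 0.5 kb was assumed and sets the totals, and the fit designed for RPKM was kept. Of per-sample columns, 0 were left unused.

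Groups came from the sample titles. GENCODE vM21 gave genes, of which only protein-coding ones were used. Columns were scaled by the median of ratios, and log2(signal + 0.5) was fitted with limma 3.58.1 (R 4.3.3; variance trend, robust moderation), two-sided, without a low-value filter or block, with Benjamini-Hochberg adjustment over all regions, and checked on simulated data. Sums used whole regions and exact permutation tests. Per member and mark, the TSS region or else the nearest was named, plus per mark up to 4 with the largest change among regions with a mean of at least 10 reads and groups apart. Likeness was taken over 6 libraries for the TSS region with the highest signal per kb. Alternatives were unscaled signal, other pseudocounts, a read filter, edgeR 4.0.16, DESeq2 1.42.0, the block, smaller windows and omitted libraries. For sums and balances, the unscaled signal, omitted libraries and other joins of the numbers were chosen after seeing the data. Members, lists and this rule were chosen with earlier results of these data known. The floor of 3 reads covers counting error only.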

Additional observations from a re-analysis of the deposited data

How the results depend on the processing

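No member was called under any alternative in H3K27ac. In H3K27me3 1 was called without scaling, the 0.5 kb Runx1 region assigned to young alone (adjusted p = 0.0435). Another 1, the Runx3 upstream region, was called without old replicate 2. The count thus ranged from 0 to 1 when a library was left out. Counts of called regions in the whole tables moved more. For H3K27ac 26 became 105 without scaling, 14 with a pseudocount of 0.1, 45 with a pseudocount of 1, 96 with edgeR, 6 with DESeq2 and 0 without trend and robust moderation in limma (2661 at an unadjusted p under 0.05), and 2 to 45 when a library was left out. For H3K27me3 137 became 774 without scaling, 71 with a pseudocount of 0.1, 86 with a mean of at least 10 reads, 35 without trend and robust moderation, 394 with edgeR and 87 with DESeq2, and 10 to 313 when a library was left out, the highest without old replicate 2. Of the calls, 10 of 26 and 23 of 137 were higher in old, 16 of 105 and 21 of 774 without scaling, and 55 of 96 with edgeR in H3K27ac. The cause of these moves was not tested.

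The H3K27ac member median of 0.02 became -0.10 without scaling, -0.026 with windows of 10 kb, -0.037 with the gene body alone, and -0.0068 to 0.086 when a library was left out. Reversed values of named regions all came from leaving out 1 library. For H3K27ac the range was -0.014 (without old replicate 1) to 0.36 at the Runx3 region, -0.12 to 0.056 (without young replicate 2, and 0.023 without old replicate 2) at Sp7 and -0.15 to 0.026 (without old replicate 2) at Atf4. For H3K27me3 it was -0.26 to 0.22 (without young replicate 3, and 0.070 without old replicate 3) at the Runx1 region nearest a TSS. Without 1 library, H3K27ac at Cbfb gave -0.05 (old replicate 2), the proximal Runx1 region 0.08 (young replicate 2) and Twist1 -0.03 (young replicate 1), and H3K27me3 at Twist1 gave -0.07 (old replicate 2). With the replicate block the calls were 81 for H3K27ac and 309 for H3K27me3, with 0 members. The numbers were not shown to pair samples, since deviations of same-numbered old and young libraries correlated between -0.087 and 0.069, and no such pair passed 0.1. H3K27ac members with few reads, from a mean of 6.0, were measured least precisely.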
